A study of Mus musculus with 13 samples.

Results

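Among the CDR3 amino-acid sequences of T cell receptor (TCR) α chains from rescued regulatory T (Treg) cells, those found in 7 to 12 of 13 samples were described. CDR3 is the loop of the receptor that is encoded where a V segment is joined to a J segment. The members were chosen by counting the deposited tables that listed each in-frame CDR3 without a stop codon, and 979 of 41501 such CDR3s (2.36%) met the rule. Another 29521 CDR3s (71.1%) were found in 1 sample, 10936 in 2 to 6 samples and 65 in all 13.

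All samples came from male C57BL/6 Foxp3LSL/y Cd4creERT2 mice. These mice carry a Foxp3 gene blocked by a removable cassette, and a tamoxifen-inducible Cre recombinase made by cells that use the Cd4 locus. A single dose of the tamoxifen metabolite 4-OHT was given to all of them at postnatal day 14, so no sample here comes from untreated mice. TCRβ+CD4+GFP+Thy1.1- cells were sorted from pooled spleen and lymph nodes 1.5 months (n = 2, mice aged 8 weeks), 3 months (n = 4, 3.5 months), 5 months (n = 2, 5.5 months) or 7 months (n = 5, 7.5 months) later. Treg identity rests on that sort, since α chains do not show it. Samples held 477052 to 882170 counts in functional rows and 4301 to 6891 distinct functional CDR3s, and 3 counts, taken as the limit of detection, equalled 3.40e-04% to 6.29e-04% of a sample (counting error only). Nothing in the labels says which samples came from separate mice, so p-values measure the spread between these samples.

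An α chain is made in the thymus by joining 1 of many V segments to 1 of many J segments, both on mouse chromosome 14. Bases may be trimmed from either end, and the enzyme terminal deoxynucleotidyl transferase (TdT) may insert untemplated bases between them. Joins with few inserted bases can be made again in other cells and other animals, and different nucleotide joins can encode 1 amino-acid sequence. CDR3s that recur across individuals are called public, and rare invariant α chains mark natural killer T (NKT) and mucosal-associated invariant T (MAIT) cells.

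The nucleotide sequences of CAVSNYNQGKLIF, a member found in 10 samples, show how 1 amino-acid sequence was reached by several joins. In the lines below, read 5′ to 3′ from the deposited tables, capitals mark inserted bases and lower case marks bases assigned to V or J. All of them use TRAJ23.
TRAV3, 5 samples: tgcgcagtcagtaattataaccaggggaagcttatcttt
TRAV7, 4 samples: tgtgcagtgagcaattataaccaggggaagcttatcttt
TRAV9, 2 samples: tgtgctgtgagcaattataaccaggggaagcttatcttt
TRAV3 with 1 inserted base, 2 samples: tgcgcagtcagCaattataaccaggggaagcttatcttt
TRAV3 with 2 inserted bases, 2 samples: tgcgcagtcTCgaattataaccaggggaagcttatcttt
Those 5 sequences come from 3 V families, and 3 of them have no inserted base.

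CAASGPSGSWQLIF, found in 11 samples, used TRAV14 and TRAJ22 in each of its 3 nucleotide sequences.
3 inserted bases, 5 samples: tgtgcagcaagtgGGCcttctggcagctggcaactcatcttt
0 inserted bases, 4 samples: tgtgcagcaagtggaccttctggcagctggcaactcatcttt
0 inserted bases, 2 samples: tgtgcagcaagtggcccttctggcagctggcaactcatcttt
The first of these had 9555 counts in all and the second had 570, while the third had 2 counts in all. All bases assigned to J match the germline segment in 2 of the 3 forms.

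Inserted bases were fewer in the members than in CDR3s found in 1 sample, in every sample. Averaged over nucleotide rows (clonotypes), members had 1.07 ± 0.0384 inserted bases (SD, n = 13 samples) and 1-sample CDR3s had 3.02 ± 0.0779. The difference was -1.95 bases, ranged from -2.09 to -1.77 and was negative in 13 of 13 samples (exact sign-flip permutation test over samples, two-sided p = 2.44e-04, the smallest that 8192 sign patterns can give; Benjamini-Hochberg value over 4 measures 2.44e-04). The 13 samples hold largely the same members and are not independent draws of them. Both classes were also sorted by number of samples, so the p-value speaks only of the agreement in sign between these samples. No base was inserted in 49.3% ± 1.75 (SD, n = 13) of member clonotypes against 21.1% ± 1.38 of 1-sample clonotypes, and 6 or more were inserted in 0.445% ± 0.280 against 12.8% ± 0.798. In 36.0% of member clonotypes the V and J ends overlapped, so that the same bases could belong to either, against 14.5%. Of the 979 members, 95 had no inserted base in any row. Bases assigned to J all matched the germline segment in 68.8% of member rows and 65.7% of 1-sample rows. Bases assigned to J that do not match it were not counted as inserted. With only matching rows kept and membership recounted, the difference was -2.15 bases.

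CDR3 length was also lower, 13.1 ± 0.0278 residues (SD, n = 13) in members and 13.7 ± 0.0425 in 1-sample CDR3s. That difference, -0.623 residues, was negative in 13 of 13 samples (same exact permutation test, p = 2.44e-04). The limits given for inserted bases hold here too, and this p-value is again the smallest possible. Lengths were concentrated rather than only shifted. CDR3s of 13 residues made up 43.8% ± 1.21 (SD, n = 13) of member clonotypes against 23.5% ± 1.09, whereas 16 residues or more made up 0.281% against 10.2% and 11 or fewer made up 3.71% against 6.53%. Members spanned 10 to 17 residues, with 4 of the 979 at the shortest length, 410 (41.9%) at 13 residues and 2 at the longest. J segments contributed more bases to member clonotypes (27.5 ± 0.0865 against 26.4 ± 0.0909, SD, n = 13). V segments contributed fewer (11.99 ± 0.110 against 12.4 ± 0.0778), and each kept its direction in 13 of 13 samples. Bases where V and J overlapped were counted for both segments, and overlaps were more frequent in members (36.0% of clonotypes against 14.5%). Part of the J difference is therefore double counting, and its size was not determined.

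**Figure D1:**
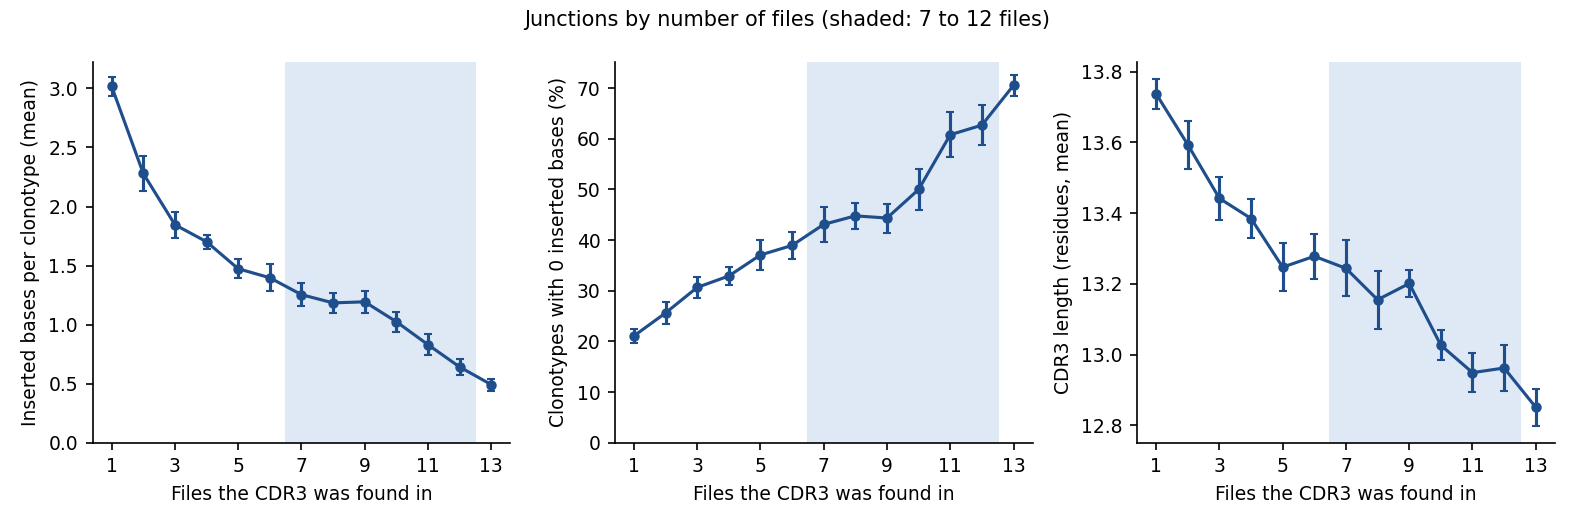
Mean inserted bases per clonotype, percent of clonotypes with 0 inserted bases and mean CDR3 length in residues (y axes) against the number of samples' files that hold the CDR3 (x axis). Points are means over the 13 samples, bars are SD, and shading marks the members; inserted bases go from 3.02 at 1 file to 0.493 at 13 files.

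The threshold of 7 samples cut through a gradual series rather than a gap. Clonotypes of the 324 CDR3s in 7 samples had 1.25 ± 0.0996 inserted bases (SD, n = 13), beside 1.40 ± 0.116 for the 465 CDR3s in 6 samples just outside the rule. At the upper edge, the 64 CDR3s in 12 samples had 0.642 ± 0.0651 and the 65 in all 13 samples had 0.493 ± 0.0517. The share with no inserted base went from 43.1% in 7 samples to 62.7% in 12, and to 70.6% in 13. No test was made along this series, since the number of samples sorted the CDR3s.

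The members were encoded by many nucleotide sequences. Over the whole series 972 of 979 members had 2 or more, the median was 6 and the highest was 18, whereas 3.33% of 1-sample CDR3s had 2 or more. This comparison is a description, because a CDR3 with more nucleotide forms has more chances of being found in several samples. Within a sample, which does not add up forms over samples, members had 1.45 ± 0.0621 nucleotide sequences per CDR3 (SD, n = 13) and 1-sample CDR3s had 1.03 ± 0.00578. For 284 members (29.0%) no single nucleotide sequence occurred in more than 3 samples, and 3 members had none in more than 1 sample. At the other end, 177 members (18.1%) had 1 nucleotide sequence in 7 or more samples. Only 119 members (12.2%) used a single V family, whereas 2 members had rows with more than 1 J gene.

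The 4 members with the most nucleotide sequences all used TRAJ15. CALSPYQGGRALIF had 18 in 9 samples, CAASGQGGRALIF had 17 in 12 samples, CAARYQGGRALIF had 17 in 11 samples and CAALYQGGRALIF had 16 in 11 samples. Many of their forms came in pairs that differ by the same base of TRAJ15. In the T20G substitution, the germline J segment has its base at position 20, counted from 1 at the segment's 5′ end, replaced. Both forms below are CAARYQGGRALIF from 1 library, 3 months replicate 4, with that base in capitals.
Germline J base, 430 counts: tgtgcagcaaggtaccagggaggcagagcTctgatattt
Substituted, 30 counts: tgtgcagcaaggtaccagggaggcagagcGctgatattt
Counting only forms whose J bases match the germline, these members had 11, 9, 9 and 8 nucleotide sequences in the order given above, and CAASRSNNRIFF, a TRAJ31 member, had the most (14 of 14). The median over all members was then 4, and 781 members (79.8%) had 2 or more, whereas 171 members had no row whose J bases all match the germline. With only such rows kept and membership recounted, 687 CDR3s were found in 7 to 12 samples.

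Substitutions of this kind were frequent in 5 J genes. Set against the germline J segments of the GENCODE annotation (GRCm38), 7 substitutions were carried by 10% or more of the functional rows of their J gene, and all 7 replaced T by G. They were T15G in TRAJ13, T20G in TRAJ15, T16G in TRAJ21, T17G and T28G in TRAJ32, and T12G and T24G in TRAJ35. T15G was carried by 46.1% of TRAJ13 rows and by 14.3% to 16.03% of TRAJ13 counts in the 13 samples. T20G was carried by 38.7% of TRAJ15 rows and 4.75% to 7.89% of TRAJ15 counts, and T16G by 39.0% of TRAJ21 rows and 5.15% to 7.47% of TRAJ21 counts. T12G was carried by 21.8% to 27.7% of TRAJ35 counts and T24G by 2.72% to 6.72%. In TRAJ32 the shares were smaller, 0.584% to 3.35% of counts for T17G and 0.496% to 2.64% for T28G. In the same sample, 91.2% of T15G rows, 91.8% of T20G rows and 90.6% of T16G rows had a row that was otherwise identical and carried the germline base, and their counts were at a median of 17.9%, 7.98% and 8.11% of it. T20G left the CDR3 amino-acid sequence as it was in all 1585 such pairs, whereas T15G and T16G changed it in all. The authors' frequency-based correction drops a clonotype that is small beside a near-identical one. Substituted forms at lower ratios may therefore be missing from the rows counted here, and the median ratios may be too high.

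**Figure D2:**
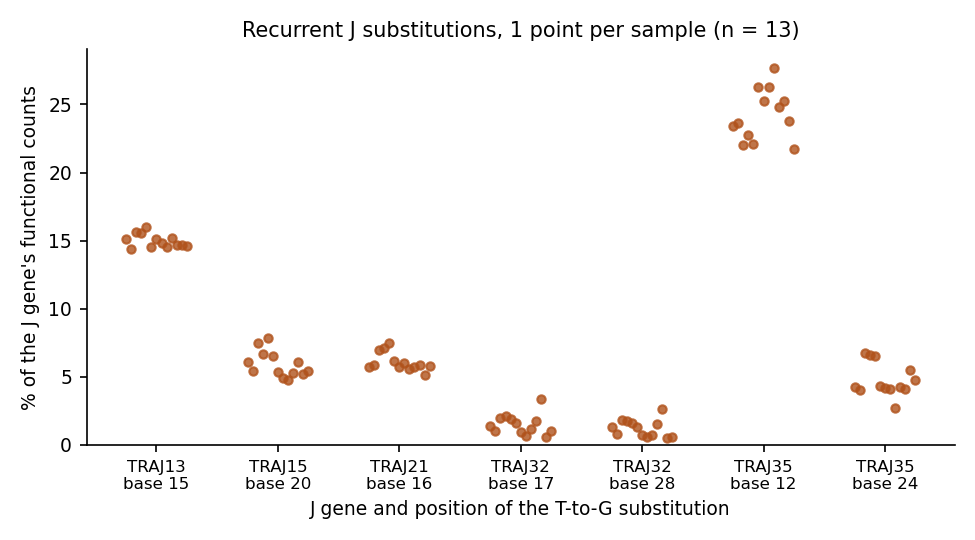
Percent of each J gene's functional counts that carries each of the 7 recurrent T-to-G substitutions (y axis), by J gene and base position in the J segment (x axis). Each point is 1 of the 13 samples; TRAJ13 base 15 sits between 14.3% and 16.03% in all 13.

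Consequently, 39 of the 979 members (3.98%) consisted only of rows with such a substitution: 19 with TRAJ13, 19 with TRAJ21 and 1 with TRAJ35. For 35 of them the CDR3 with the germline base was also a member, and for 2 it was found in all 13 samples. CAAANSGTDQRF and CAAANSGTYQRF, which differ by T15G, occurred in the same 12 samples. The pair is shown as found in 3 months replicate 2 with TRAV4D-4, with the base in capitals.
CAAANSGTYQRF, 198 counts: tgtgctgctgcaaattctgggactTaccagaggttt
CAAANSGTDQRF, 53 counts: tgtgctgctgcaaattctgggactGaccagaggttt
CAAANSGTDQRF had 19 to 81 counts in its 12 samples and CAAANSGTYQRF had 101 to 502, and both were at 0 in 5 months replicate 1. Its counts were 13.2% to 25.8% of those of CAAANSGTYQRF, with a median of 16.5%. Over the 39 members, 326 of their 330 occurrences (98.8%) were in a sample that also held the CDR3 with the germline base, and in none of these were its counts exceeded. The other 4 occurrences were in samples where the germline form was at 0. The 39 took 0.0777% to 0.325% of functional counts per sample. Removing every row with 1 of the 7 substitutions lost exactly these 39 members and left 940, with a difference in inserted bases of -1.97. Where these substitutions arose was not tested.

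V families were used unequally by the members. Their shares of clonotypes are compared by the number of samples in which members were higher, with no test, since membership itself depends on which segments are frequent. TRAV14 (9 genes, chr14:52855614-53763694, GRCm38) accounted for 24.4% ± 1.10 (SD, n = 13) of member clonotypes and 10.6% ± 0.831 of 1-sample clonotypes, and was the leading family of 308 members. TRAV7 (13 genes, chr14:52654817-53717291) accounted for 23.4% ± 1.22 against 16.3% ± 0.616. TRAV4 accounted for 11.2% against 8.65% and TRAV5 for 5.31% against 3.46%, and these 4 families were higher in members in 13 of 13 samples. On the other side, TRAV13 accounted for 2.77% against 9.72%, TRAV6 for 6.08% against 11.2%, TRAV8 for 0.852% against 3.85% and TRAV16 for 0.923% against 3.36%, all lower in 13 of 13 samples. These families are duplicated in the mouse genome and hold near-identical genes, so single V genes within a family may be interchanged in the authors' assignment.

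J segments differed as well. TRAJ31 (chr14:54187895-54187951) accounted for 8.50% ± 0.877 (SD, n = 13) of member clonotypes and 4.33% ± 0.333 of 1-sample clonotypes. TRAJ23 (chr14:54196081-54196140) accounted for 6.92% against 4.02%, TRAJ37 (chr14:54181518-54181577) for 5.32% against 2.88% and TRAJ15 (chr14:54204422-54204481) for 7.27% against 4.94%. The first 3 of these were higher in members in 13 of 13 samples and TRAJ15 in 12 of 13. TRAJ35 (chr14:54183774-54183838) accounted for 0.178% against 2.12%, TRAJ32 (chr14:54186101-54186166) for 1.42% against 3.12%, TRAJ48 for 0.480% against 1.90% and TRAJ45 for 0.140% against 1.19%, each lower in 13 of 13 samples. TRAJ31 and TRAJ32, which differed in opposite directions, are numbered next to each other. The most frequent pairing was TRAV7 with TRAJ31, used by 47 members, followed by TRAV7 with TRAJ23 (40) and TRAV7 with TRAJ37 (36). All 126 V and J names of member rows were found in the annotation.

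**Figure D3:**
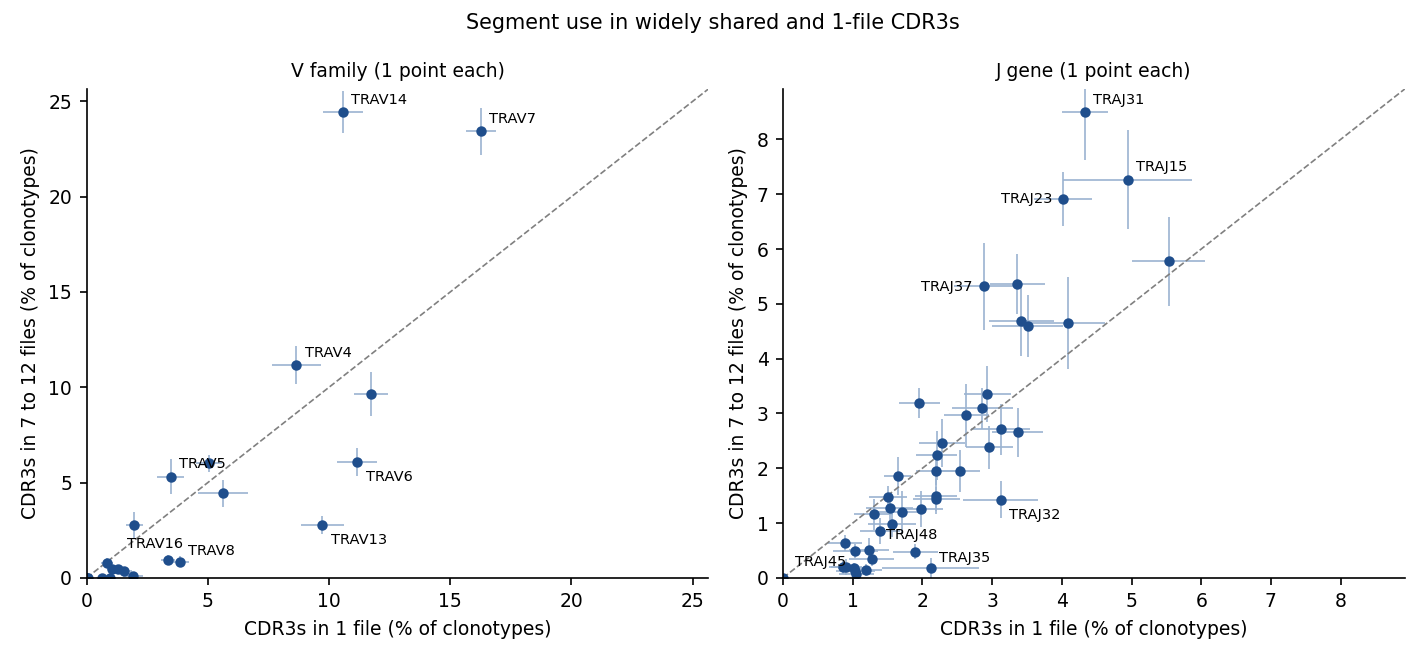
Share of member clonotypes (y axis, %) against share of 1-sample clonotypes (x axis, %), 1 point per V family on the left and per J gene on the right; points are means over 13 samples, bars SD, and the dashed line marks equal shares. The segments named in the text are labelled: TRAV14 and TRAV7 lie above the line, TRAV13 and TRAV6 below it.

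The middle of the CDR3 differed in residues too. With the first 3 and last 4 residues left out, asparagine made up 19.7% ± 0.657 (SD, n = 13) of member residues against 14.7% ± 0.293, and serine 19.2% against 15.6%. Glutamate made up 1.68% against 3.82%, aspartate 2.01% against 3.49%, proline 1.08% against 2.35% and valine 0.676% against 1.91%. Those 6 residues held their direction in 13 of 13 samples, whereas glycine (20.8% against 20.7%) was higher in 8 and lower in 5. For 866 of 979 members (88.5%) another member of equal length differed at 1 residue, and the largest chain of such neighbours joined 46 members over 3 J genes. Among the far more numerous 1-sample CDR3s, 76.3% had a 1-sample neighbour at 1 residue, so such neighbours are not particular to members, and the 2 shares come from pools of very different size. Some of the neighbours are the T-to-G pairs described above, and without the 39 members that consist only of substituted rows 826 of 940 (87.9%) had such a neighbour.

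None of the members was an invariant chain of another lineage by the definitions used here. NKT-type chains (TRAV11 joined to TRAJ18, 15 residues) were listed as 8 CDR3s, none of them in more than 4 samples, and took at most 0.0710% of functional counts in any sample. The 1 MAIT-type CDR3 (TRAV1 joined to TRAJ33, 12 residues) was found in 1 sample. CDR3s with a TRDV or TRDJ segment, which γδ T cells use, numbered 72, none in more than 3 samples.

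Members took 17.9% to 23.3% of functional counts, with no ordering by time point. Their share was 22.1% and 17.9% in the samples at 1.5 months. It was 20.5%, 21.4%, 19.7% and 22.4% at 3 months, 19.4% and 21.0% at 5 months, and 20.0%, 21.5%, 18.5%, 21.3% and 23.3% at 7 months. The groups overlapped, and both samples at 1.5 months lay near the ends of the whole range. In any 1 sample the members it holds are CDR3s found in 6 to 11 of the other 12 samples, so of the CDR3s detected in a sample, the other 12 samples alone decide which are members. Against 1.5 months the differences were 0.978 points at 3 months, 0.185 at 5 months and 0.925 at 7 months (exact permutation test over 540540 arrangements with the largest of 3 statistics, two-sided p = 0.831, 0.999 and 0.839, pooled SD 1.74). Without 1.5 months replicate 2 all 3 differences were negative (-1.15, -1.94 and -1.20 points). By comparison, 1-sample CDR3s took 19.9% to 33.2% of counts and the 65 CDR3s of all samples took 3.81% to 5.96%.

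The members' share of distinct CDR3s was highest in the samples at 5 months, a difference that in the main setting did not pass after adjustment. Presence in a file is what the rule counted, alike in every sample whatever its time point, and here too the other 12 samples decide which of a sample's CDR3s are members. Members made up 10.7% and 12.2% of distinct functional CDR3s at 1.5 months, 10.9%, 12.4%, 12.2% and 11.8% at 3 months, 13.2% and 13.9% at 5 months, and 12.99%, 11.5%, 12.5%, 13.001% and 12.1% at 7 months. Both samples at 5 months were above all the others. The difference from 1.5 months was 2.11 points (same exact permutation test, p = 0.0288), but the Benjamini-Hochberg value over the 6 comparisons was 0.173. With replicate number as a block the permutation p was 0.168. The difference was 1.37 points without 1.5 months replicate 1 and 2.84 without 1.5 months replicate 2. It was 2.43 points without 5 months replicate 1 and 1.78 without 5 months replicate 2. Leaving out a replicate at 1.5 or 5 months leaves 1 sample in that group, so only the size is given. With rows of 1 count removed the difference was 2.08 points and the exact permutation p was 2.74e-04. That p would stay under 0.05 after adjustment over the 6 comparisons. In the main setting the difference at 7 months was 0.988 points (exact permutation p = 0.239) and at 3 months 0.397 (p = 0.817). The number of distinct CDR3s moved with this share. The 4 samples with the fewest, 4301 and 4815 at 5 months and 4464 and 4492 at 7 months, were those with the 4 highest shares, and the part of this in the result was not tested. The number of members found went from 580 to 737 per sample (59.2% to 75.3% of the 979), and was highest in 1.5 months replicate 1, which held the most distinct CDR3s, 6891.

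**Figure D4:**
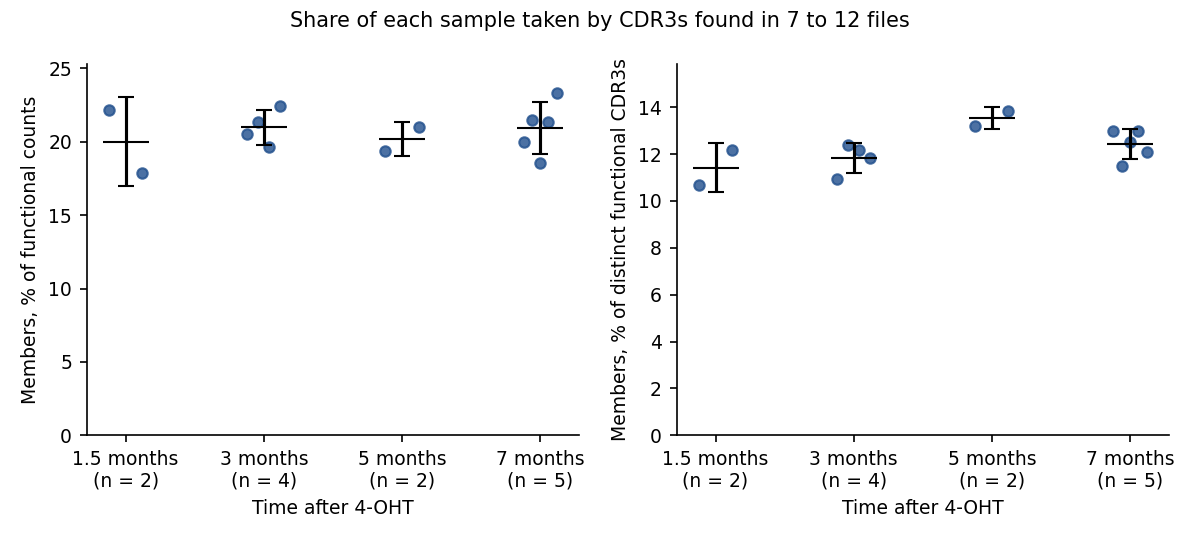
Share of functional counts (left) and of distinct functional CDR3s (right) that members made up, in percent, by time after 4-OHT. Points are samples, horizontal marks are group means and bars are SD; the groups overlap on the left, and the 2 samples at 5 months (13.2% and 13.9%) are the highest on the right.

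A member CDR3 was on average larger than a 1-sample CDR3. Counts per CDR3 and sample were 2.50-fold higher in members (geometric mean over 13 samples; range 1.93 to 3.47; higher in 13 of 13). This too is a description, since larger clones are more easily found in several samples and since members sum more nucleotide forms. Most members were small all the same. The median member had a mean share of 0.0161% over the 13 samples, and 706 members never exceeded 0.1% in any sample. Of the 273 that did, 209 did so in 1 sample only, and 10 members exceeded 1% in some sample. For 131 members (13.4%) more than 50% of the share summed over samples lay in a single sample.

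The largest members were mostly large in 1 sample. The member with the highest mean share was a TRAV15–TRAJ37 CDR3 of 15 residues, the only member whose leading family was TRAV15. It had 24412 counts, 4.59% of functional counts, in 7 months replicate 5. In the other samples at 7 months it had 0, 2, 2 and 1 counts, at 3 months 15, 0, 0 and 1, at 1.5 months 21 and 1, and at 5 months it was at 0 in both. Of its 8 samples, 6 held only a row with 100 or more times the count in another library, which may be carry-over between libraries.

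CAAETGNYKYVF, a TRAV4–TRAJ40 CDR3, was large in samples of different time points. Its share was 2.33% in 7 months replicate 4 and 1.01% in 1.5 months replicate 1. At 3 months it was 0.00121%, 0.0264%, 0.0163% and 0.0102%, and the other samples at 7 months had 0.00999%, 0.0893%, 0 and 0. It was at 0 counts in 1.5 months replicate 2 and in both samples at 5 months. The same nucleotide sequence, with no inserted base, was found in all 8 of its samples.

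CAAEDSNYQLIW, a TRAV4–TRAJ33 CDR3 of 11 samples, was the most evenly spread of the 8 members with the highest mean share. Its share was 0.108% and 0.0832% at 1.5 months, 0.529%, 0.0425%, 0.736% and 0.0713% at 3 months, 0.0120% and 0.479% at 5 months, and 0, 0.103%, 0, 0.0285% and 0.0152% at 7 months. The 5 samples at 7 months lay at or below 0.103%. In 2 of them it was at 0, below all 8 samples of the other groups, and the other 3 lay within the range of those samples. Its most widespread nucleotide form, with no inserted base, occurred in 11 samples, and no row of it was possible carry-over.

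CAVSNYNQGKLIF, whose 5 forms are shown above, had 1.79% in 1.5 months replicate 1 and at most 0.113% elsewhere, that value being in 7 months replicate 3. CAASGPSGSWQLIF had 1.91% in 7 months replicate 4 and at most 0.0403% elsewhere, and the large share belonged to the form with 3 inserted bases, which had 9093 counts there. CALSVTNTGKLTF, a TRAV12–TRAJ27 CDR3, had 1.81% in 3 months replicate 4, 0.104% in 5 months replicate 2 and at most 0.0195% elsewhere. A TRAV14–TRAJ39 CDR3 of 13 residues had 2.67% in 5 months replicate 1 and 0.532% in 3 months replicate 3, by different nucleotide sequences that used TRAV14 or TRAV7 in the first and TRAV4 in the second. A TRAV14–TRAJ42 CDR3 of 14 residues had 1.38% in 3 months replicate 1 and at most 0.0586% elsewhere. By contrast, the 4 TRAJ15 members with the most nucleotide sequences did not exceed 0.105% in any sample.

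**Figure D5:**
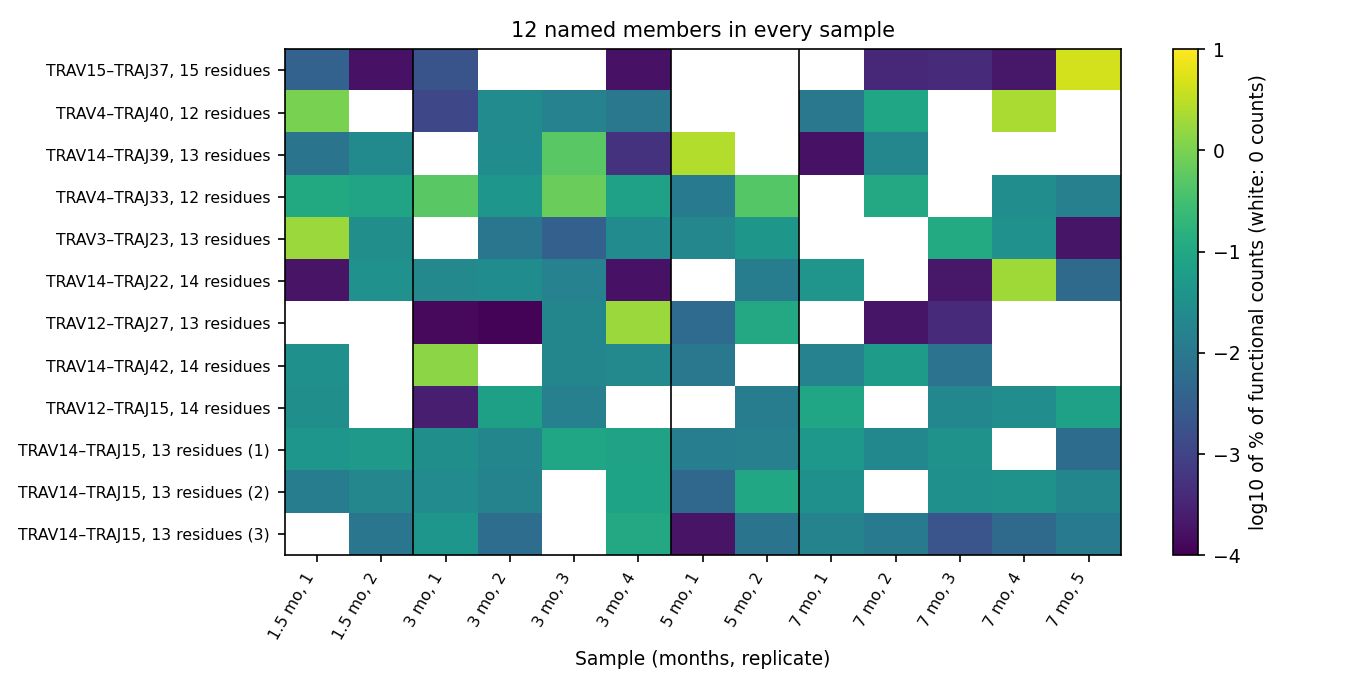
Share of functional counts (colour, log10 of percent; white, 0 counts) of the 8 members with the highest mean share and the 4 with the most nucleotide sequences (rows, by V family, J gene and length) in the 13 samples (columns). Black lines separate time points; 7 of the top 8 rows exceed 1% in a sample, and none of the 4 bottom rows exceeds 0.105%.

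Testing each CDR3 across samples with edgeR's quasi-likelihood test called no member between 7 and 1.5 months. Of 8206 CDR3s that passed the filter on low counts, 0 were called (0%) at an adjusted p under 0.05, and 0 of the 977 members among them. At an unadjusted p under 0.05 there were 12 members and 980 CDR3s, while DESeq2, which gave an adjusted p to 4437 CDR3s, called 664 of them (15%) and 26 of 902 members (2.88%), all 26 higher at 7 months. The median log2 fold change of the members was 0.30 beside 0.58 for all CDR3s tested, and 0.12 beside 0.42 with library totals in place of TMM factors. Neither the size nor the order of these medians was stable. With the replicate block they were -0.24 and 0.03, and without each replicate in turn the members' median ran from 0.079 (without 7 months replicate 5) to 0.86 (without 1.5 months replicate 1) and lay above that of all CDR3s tested, which was at most 0.15. The smallest unadjusted p among members was that of the TRAV15–TRAJ37 CDR3 (edgeR adjusted p = 0.408). It had 21 and 1 counts at 1.5 months, the latter under the limit of detection, so no fold change is given.

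Between 7 and 3 months 2 of 977 members were called, beside 6 of all 8206 CDR3s (0.0731%). The TRAV15–TRAJ37 CDR3 was higher at 7 months (edgeR adjusted p = 0.00104) and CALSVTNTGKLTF was lower (edgeR adjusted p = 0.00847). The TRAV15–TRAJ37 CDR3 had 15, 0, 0 and 1 counts at 3 months, all but the first under the limit of detection of 3 counts. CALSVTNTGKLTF had 0, 1, 2, 0 and 0 counts at 7 months, each under that limit, and 1, 1, 122 and 10257 counts at 3 months. No fold change is therefore given for either. Each call rested on 1 library, 7 months replicate 5 for the TRAV15–TRAJ37 CDR3 and 3 months replicate 4 for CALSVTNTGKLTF. Leaving out either of these libraries left 1 member called, as did leaving out 7 months replicate 1. With possible carry-over rows removed, membership was recounted, and both called members left the range of 7 to 12 samples. The number of members called could therefore not include them. It was 0, beside 5 of all 8206 CDR3s (0 and 4 when V was matched by family). With V matched by gene, 18 of 907 members had an unadjusted p under 0.05 beside 2090 of all CDR3s. With the replicate block 0 members and 0 CDR3s were called, and 8 of 977 members had an unadjusted p under 0.05 beside 27 of all CDR3s. DESeq2 called 15 of 902 members (1.66%) beside 278 of 4437 CDR3s (6.27%).

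Possible carry-over rows were found among the members' rows and among all rows, in shares that cannot be compared directly. Rows whose V, J and nucleotide sequence had 100 or more times the count in another library made up 388 of 12246 member rows (3.17%) and 3.21% of all functional rows. All functional rows include 30541 rows of 1-sample CDR3s, which cannot meet the rule because no other sample holds their sequence. Without them 902 of the members stayed in the range of 7 to 12 samples and 77 did not. Of the 273 members that exceeded 0.1% in some sample 22 were lost (8.06%), among them 3 of the 10 that exceeded 1%, and of the 706 that never exceeded 0.1% 55 were lost (7.79%). Among those named above, the TRAV15–TRAJ37 CDR3 went from 8 samples to 2, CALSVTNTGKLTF from 8 to 3 and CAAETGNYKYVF from 8 to 5, while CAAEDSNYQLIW stayed at 11. This rule asks for the same V gene name, and so misses rows that the authors' assignment gave to another gene of the family. Matched by V family instead, such rows made up 527 member rows (4.30%) and 3.99% of all functional rows, and 869 of the members stayed while 110 did not. Lost were then 29 of the 273 members that exceeded 0.1% (10.6%), among them 4 of the 10 above 1%, and 81 of the other 706 (11.5%). The fourth is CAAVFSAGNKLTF, a TRAV4–TRAJ17 CDR3 singled out after its values were seen, which had a single nucleotide sequence, 7217 counts (1.36%) in 7 months replicate 5 and 1 or 2 counts in each of its other 6 samples, and went from 7 samples to 1. Pairs of libraries shared a median of 4.37% of the nucleotide sequences of members (shared over total of both). In the highest pair, 3 months replicate 4 shared 8.35% with the first replicate at 1.5 months. The same library shared 7.67% with the first replicate at 5 months, and the next pair was at 6.20%. Over the nucleotide sequences of all functional rows, 3 months replicate 4 shared 5.59% with 1.5 months replicate 1. It shared 6.24% with 5 months replicate 1, beside a median of 1.59% over all pairs. Why these libraries share more was not tested. With 3 months replicate 4 left out and membership counted over the other 12 samples, members numbered 781. The differences from 1-sample CDR3s kept their direction.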

How the data were processed

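The sorted cells' α-chain transcripts were amplified by 5′ RACE and sequenced on an Illumina MiSeq. The authors aligned reads and assembled clonotypes with MiXCR and ran a frequency-based correction in VDJtools, which drops small clonotypes up to 2 mismatches from a much larger one. The submitters' notes name GRCm38. The deposited tables give a raw count per clonotype, and whether it counts reads or molecules is not given in the sources used here. The authors also gave, as a fraction, each count divided by the sample's total, which was not used in tests. V and J end positions, with other positions, came from the authors' tables, and inserted bases were those between them, with overlaps set to 0. Rows with no V end (54) were left out of insertion means. Rows with a stop codon or frameshift were removed.

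Members were CDR3s in 7 to 12 of 13 samples. They, the lists and the tests were chosen with earlier results of these data known. Members named were the 8 with the highest mean share, the 4 with the most nucleotide sequences and, per edgeR comparison, up to 4 called in each direction or else the smallest p. Segments named were the 4 with the largest difference each way. CDR3s over 14 residues, or whose letters read as bases, are given by V, J and length. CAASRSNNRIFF, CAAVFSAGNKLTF and the TRAJ13 pair were chosen after their values were seen.

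Share of counts and of CDR3s were compared with 1.5 months by a pooled-SD statistic over all arrangements of the samples, in place of the study's analysis of variance. Within-sample differences were tested over all sign patterns. Counts per CDR3 were fitted with edgeR 4.0.16 (filterByExpr, TMM, quasi-likelihood, all groups in 1 model) in R 4.3.3, and with DESeq2 1.42.0 as an alternative. Python 3.11.15, numpy 2.4.6, pandas 2.3.3 and matplotlib 3.10.9 were used. Germline J sequences and positions came from GENCODE on GRCm38. Code was tested on simulated data. The alternatives were a minimum of 2 counts, equal depth (477052 counts), removal of possible carry-over, other ranges (5 to 12, 9 to 12 samples), each replicate or 3 months replicate 4 left out, TRD rows removed, other reference classes and weights, only the groups compared permuted, a replicate block, and, for edgeR, library totals and no filter. The alternatives on J substitutions and on carry-over matched by V family were added after the data were seen. Replicate numbers were not treated as pairs: deviations of same-numbered samples correlated at -0.102 (counts) and -0.109 (CDR3s) over 14 pairs.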

Additional observations from a re-analysis of the deposited data

Results flagged for a closer look

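In 10 of 38 groups of 4 or 5 samples that were examined, 1 sample lay far from the others by Dixon's test. The chance rate of that test, about 1 in 20 groups, does not hold here, because these members were picked for a high mean share, which favours a CDR3 that is large in 1 sample, and because many shares are 0. The 10 are therefore a description. All 10 were shares of single members in percent of functional counts, and none concerned a summed share or a junction measure. Those above 1% were the TRAV15–TRAJ37 CDR3 in 7 months replicate 5 (4.59%), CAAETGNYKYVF and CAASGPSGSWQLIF in 7 months replicate 4 (2.33% and 1.91%), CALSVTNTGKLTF in 3 months replicate 4 (1.81%) and the TRAV14–TRAJ42 CDR3 in 3 months replicate 1 (1.38%). Below 1% were the TRAV14–TRAJ39 CDR3 in 3 months replicate 3 (0.532%) and 7 months replicate 2 (0.0207%), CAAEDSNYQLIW in 7 months replicate 2 (0.103%), the TRAV14–TRAJ42 CDR3 in 7 months replicate 2 (0.0586%) and the TRAV15–TRAJ37 CDR3 in 3 months replicate 1 (0.00201%).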

How the results depend on the processing

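The differences in inserted bases and in length between members and 1-sample CDR3s were negative in every sample under every alternative run. The exact p is then always the smallest the number of samples allows, so it says nothing of stability, and the sizes are given instead. Inserted bases ran from -2.15 (only rows whose J bases match the germline) to -1.59, and length from -0.691 to -0.545 residues. Without each replicate in turn they ran from -1.96 to -1.94 and from -0.632 to -0.616. The number of members was 431 for 9 to 12 samples and 2166 for 5 to 12 samples. It was 687 with only germline-matching J bases, 788 with at least 2 counts per row, 909 with possible carry-over rows removed and 879 when these were matched by V family.

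None of the differences in share of counts passed the threshold under any alternative, and their sign was not stable. Against 1.5 months they were negative for 9 to 12 samples (-0.483 points at 3 months, -0.504 at 5 months, -0.911 at 7 months), with at least 2 counts per row (-0.895 at 7 months), with possible carry-over by V family removed (-0.432 at 7 months) and without 3 months replicate 4 (-0.00556 at 7 months). Without each replicate in turn they ran from -1.15 to 3.11 at 3 months, -1.94 to 2.32 at 5 months and -1.20 to 3.06 at 7 months. For the share of distinct CDR3s at 5 months, the exact permutation p missed the threshold with the replicate block (2.11 points, p = 0.168), with only the 2 groups permuted (2.11 points, p = 0.333, where 6 arrangements cannot reach 0.05), for 9 to 12 samples (1.31 points, p = 0.0748) and with only germline-matching J bases (2.14 points, p = 0.0650). It passed under the other alternatives run on all samples or without 3 months replicate 4, with exact permutation p from 2.74e-04 (at least 2 counts per row, 2.08 points) to 0.0347. At 7 months it passed with at least 2 counts per row (1.15 points, exact permutation p = 0.00950). Without each replicate in turn the differences ran from -0.335 to 1.13 at 3 months, 1.37 to 2.84 at 5 months and 0.256 to 1.72 at 7 months. The replicate block moved no other p of a share across 0.05. The cause of these changes was not tested.

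Members called between 7 and 1.5 months numbered 26 with DESeq2 (of 664 CDR3s called) and 0 without each replicate in turn (of 0). Between 7 and 3 months they numbered 15 with DESeq2 (of 278 CDR3s called) and 4 for 5 to 12 samples (of 6). Without each replicate in turn they numbered 1 to 3 (of 1 to 6). They numbered 0 with no filter (of 0) and with the replicate block (of 0). With possible carry-over rows removed (of 5, or of 4 by V family) and for 9 to 12 samples (of 6) they also numbered 0. There, the members called in the main setting fell outside the class, so these settings could not count them and do not test those calls.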
